A study of Mus musculus with 7 samples.

Results

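The genes described here carry the central route of energy metabolism in mouse cortical neurons, from glucose uptake through glycolysis and lactate to the citric acid cycle, together with the storage of glucose as glycogen. A list of 41 genes was ordered into 8 steps of that route, and their RNA was compared between cultures that received a control hairpin and cultures that received no virus. A gene was measured if at least 1 probe set of the array was annotated to it alone, had no _x in its name (the mark of probes that can bind other transcripts), and reached a level of 50 or more on any array. This left 36 of the 41 genes, out of 12315 genes measured in all. *Gpi1*, *Aldoa*, *Gapdh* and *Eno1* had no usable probe set, so *Gapdh*, the reference gene of the study's quantitative PCR, has no value here. *Pygm*, the glycogen phosphorylase of muscle, stayed under 50, with a highest level of 23.0. Among measured genes the lowest maximum was that of *Gbe1*, the glycogen branching enzyme, at 128.8.

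The cultures were primary neurons from the cortex of C57/Bl6J embryos at embryonic day 16, harvested after 16 days in vitro. The luciferase group (4 arrays, replicates 1 to 4) was transduced with a lentivirus that expresses a short hairpin (shRNA) against luciferase, an enzyme of fireflies that mice lack, from an H1 promoter. Transduction took place 2 weeks before harvest. The blank group (3 arrays, replicates 5 to 7) was naïve, which means untransduced. The methods measured viral titer by co-expressed green fluorescent protein, so the comparison covers the virus, this protein and the hairpin together. They also state that 1 untransduced sample was left out for RNA quality. Levels are intensities on a linear scale after robust multi-array averaging (RMA), and they compare arrays for 1 probe set, not 1 gene with another. No source used here says that the cultures of a group came from separate litters, so p-values rest on a spread between samples that may be technical, and the small number of arrays limits the precision.

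Glycolysis splits glucose into pyruvate in the cytosol, with hexokinase, phosphofructokinase and pyruvate kinase as its controlled steps. Lactate dehydrogenase interconverts pyruvate and lactate, while the pyruvate dehydrogenase complex, held in check by its kinases, feeds the citric acid cycle in mitochondria. In the brain, astrocytes hold most of the glycogen and can release lactate, and neurons rely strongly on mitochondrial oxidation. Many glycolytic genes are targets of the hypoxia-inducible factors, which bind a short DNA element with the core ACGTG or GCGTG.

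Promoters were taken from RefSeq on GRCm38.p6 as the 250 bases before each annotated start site. A promoter was found for 39 of the 41 genes, and 32 of these (82.1%) held ACGTG or GCGTG on either strand. The share was 61.7% over the 9953 tested genes with a promoter and 41.5% over all 27025 genes of that source, so the core was common in every set. The windows of the 3 genes whose RNA passed the test below are shown, 5′ to 3′ on the strand of the gene, with each match to the core in capitals. *Idh1* and *Idh2* encode isocitrate dehydrogenases and *Gys1* encodes glycogen synthase. *Idh1* has 2 annotated start sites, at chr1:65186480-65186729 and chr1:65179143-65179392 on the minus strand, and its windows hold 0 and 1 match. *Idh2* (chr7:80115351-80115600, minus strand) holds 1 match and *Gys1* (chr7:45434589-45434838, plus strand) holds 0.
Idh1, first start site: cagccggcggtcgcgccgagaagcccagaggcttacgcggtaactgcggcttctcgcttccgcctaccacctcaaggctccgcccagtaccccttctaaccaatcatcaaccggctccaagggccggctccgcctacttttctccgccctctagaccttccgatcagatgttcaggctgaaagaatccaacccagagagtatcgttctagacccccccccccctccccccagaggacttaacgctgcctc
Idh1, other start site: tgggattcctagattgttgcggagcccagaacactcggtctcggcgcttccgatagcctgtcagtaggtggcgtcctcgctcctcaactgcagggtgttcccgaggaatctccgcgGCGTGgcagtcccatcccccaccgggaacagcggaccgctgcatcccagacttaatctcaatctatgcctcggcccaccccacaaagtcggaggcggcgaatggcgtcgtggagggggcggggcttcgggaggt
Idh2: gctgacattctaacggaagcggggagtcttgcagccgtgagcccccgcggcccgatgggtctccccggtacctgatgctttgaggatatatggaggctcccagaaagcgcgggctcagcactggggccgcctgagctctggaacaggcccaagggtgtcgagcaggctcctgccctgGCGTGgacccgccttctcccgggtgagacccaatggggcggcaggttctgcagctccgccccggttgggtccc
Gys1: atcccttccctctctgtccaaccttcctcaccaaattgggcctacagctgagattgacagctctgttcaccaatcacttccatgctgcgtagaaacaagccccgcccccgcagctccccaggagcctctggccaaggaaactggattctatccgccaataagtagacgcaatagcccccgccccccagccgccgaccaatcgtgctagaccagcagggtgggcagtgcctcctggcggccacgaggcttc

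Few of these genes differed between the groups. Of the 36 genes, 2 were higher in luciferase cultures (*Idh2* and *Gys1*, 5.56%) and 1 was lower (*Idh1*, 2.78%) with the threshold set at an adjusted p of 0.05 from limma, while 33 did not pass. Over all 12315 genes the shares were 16.9% higher and 8.55% lower. No gene of the route passed at 1.5-fold or more, against 4.06% of all genes. The arrays of the groups did not overlap in 9 of the 36 genes (25%), against 37.5% of all genes. The median log2 change, luciferase minus blank, was 0.00 with a range of -0.27 to 0.41, where the median over all genes was 0.06, and the median size of the change was 0.11 against 0.17.

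The intervals around these changes were narrow. In 34 of the 36 genes (94.4%) the 95% interval of the log2 change lay wholly within 1.5-fold in both directions, against 83.3% of all genes. *Slc16a3*, a lactate transporter (0.02 to 0.62), and *Gys1* (0.13 to 0.70) were the exceptions. The median moderated SD of the 36 genes was 0.10 on the log2 scale against 0.12 over all genes. The 36 genes also had high levels, 33 of them (91.7%) above the median of the tested probe sets, against 60.1% of all genes. The part of level in the narrow intervals was not tested.

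**Figure D1:**
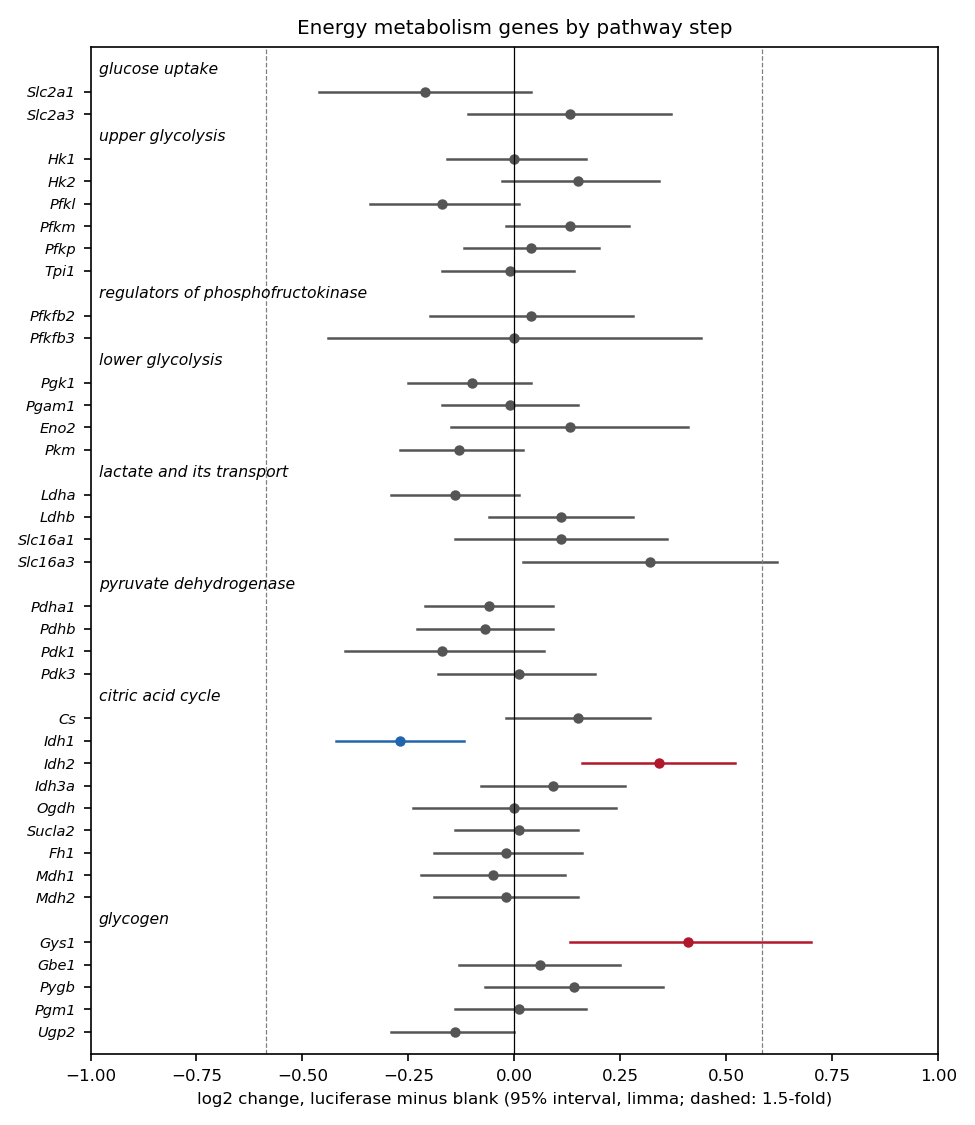
Log2 change (luciferase minus blank) of the 36 measured genes, grouped by step of the route, with 95% intervals from limma; red marks genes that were higher and blue the gene that was lower past an adjusted p of 0.05, and dashed lines mark 1.5-fold. *Idh1* lies at -0.27, *Idh2* at 0.34 and *Gys1* at 0.41, and 34 of the 36 intervals stay between the dashed lines.

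Some measures of the cultures moved with the groups and are given before the single genes. The median level over tested probe sets was 237.4 to 241.4 on luciferase arrays and 215.5 to 235.1 on blank arrays, but with no filter on level it ran the other way, at 48.28 to 49.03 against 49.61 to 50.96. Of 14 measured astrocyte markers (16 listed), 9 were higher in luciferase cultures and 0 lower, with a median log2 change of 0.46, and their summed level was 33801.6 to 36665.3 against 25839.7 to 28369.1. *Gfap*, the filament protein of astrocytes, had a log2 difference of 1.19 (adjusted p = 6.0e-04 from limma). Of 12 neuron markers, all of them measured, 2 were higher and 0 lower, which turned to 0 higher and 2 lower with arrays centred on their medians, and 0 were higher without blank replicate 5 or 6 or luciferase replicate 2 or 3. With centring, 9.42% of all genes were higher and 15.8% lower. The sums of the neuron markers overlapped, at 50995.8 to 52898.5 against 48266.4 to 51896.2. Of 6 measured vascular and meningeal markers (11 listed), 1 was higher and 2 lower, with sums of 610.6 to 814.9 against 1044.5 to 1159.1. That gap came from *Dcn*, a matrix protein of fibroblasts (346.9 to 540.2 against 760.4 to 939.6), and without it the sums overlapped, at 250.9 to 274.7 against 219.5 to 284.2. *Cldn5*, *Pecam1* and *Cdh5*, which define endothelium, were under 50 on every array. Among oligodendrocyte markers 1 of 8 was higher and 1 lower, 0 of 7 markers of dividing cells passed, and 8 of 10 microglial markers were under 50. The part of these differences in the changes below was not tested, and in such bulk RNA fewer cells of a type cannot be told apart from less RNA per cell.

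Blank replicate 7 stood apart from the other blank arrays. It was the highest of the 3 in 19 of the 36 genes and lay above the others' mean by more than 0.3 on the log2 scale in 9 of them (25%), against 16.4% of all genes. Those 9 genes were *Pfkfb3* (0.83), *Gys1* (0.50), *Eno2* (0.49), *Slc16a3* (0.45), *Ogdh* (0.43), *Slc16a1* (0.40), *Slc2a1* (0.39), *Pdk1* (0.38) and *Slc2a3* (0.37), and they were named for these values. None of the 36 lay below by that much. Its median deviation was 0.064 over the 36 genes and 0.099 over all genes, so the median offset was no larger in the 36 genes. These medians do not describe the 9 genes named. With no filter on level the median of this array, 49.61, lay below those of blank replicates 5 and 6 (50.5 and 50.96). Without this array 5 genes were higher and 1 lower, the genes added being *Eno2* (log2 change 0.29, adjusted p = 0.025 from limma), *Slc16a3* (0.47, adjusted p = 0.018) and *Slc2a3* (0.26, adjusted p = 0.05). The shares over all genes rose as well, to 23.1% higher and 9.32% lower, from 16.9% and 8.55% with all arrays.

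**Figure D2:**
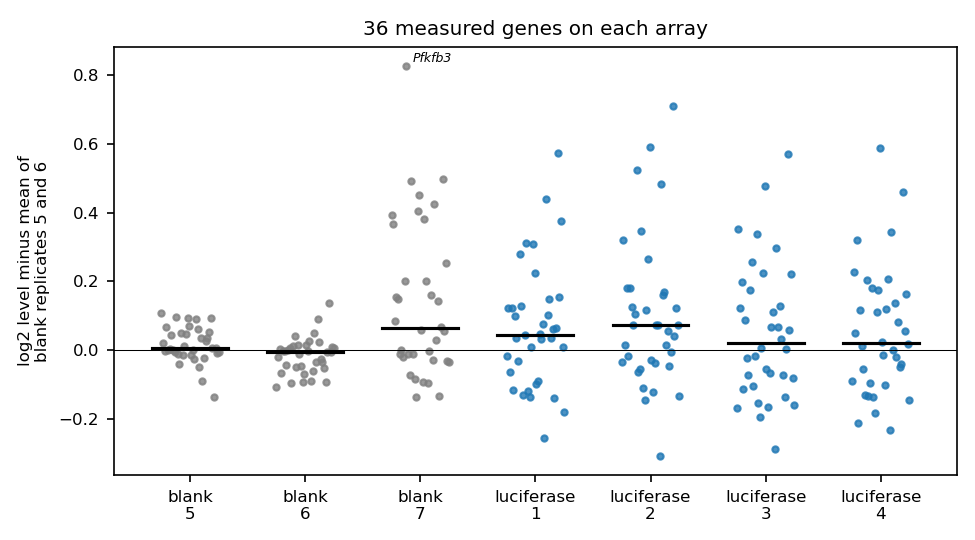
Log2 level of each of the 36 genes on each array minus its mean over blank replicates 5 and 6 (points), with the median over the genes (bar), for blank (grey) and luciferase arrays (blue). Blank replicate 7 carries the single highest point, *Pfkfb3* at 0.83, and no point under -0.3.

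Glucose enters neurons mainly through *Slc2a3* (GLUT3), and *Slc2a1* (GLUT1) is the transporter of glia and of the blood vessel wall. Neither passed the test. *Slc2a1* had levels of 1720.2, 1699.2, 1549.9 and 1635.7 in luciferase cultures and 1874.1, 1617.0 and 2287.0 in blank cultures, a log2 difference of -0.21 (adjusted p = 0.2 from limma). The groups overlapped through blank replicate 6, and blank replicate 7 was the highest. *Slc2a3* had a log2 difference of 0.13 (adjusted p = 0.39), and its blank replicate 7, at 6337.5, lay above all luciferase arrays.

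None of the 6 measured genes of upper glycolysis passed, and their log2 changes ran from -0.17 to 0.15. *Hk1*, the main hexokinase of brain, had a change of 0.00 and *Hk2*, its inducible relative, 0.15. Phosphofructokinase, which commits sugar to glycolysis, is built from 3 kinds of subunit, and their values differed in sign. *Pfkl*, the liver-type subunit, had levels of 1765.4, 1891.3, 1769.5 and 1651.5 in luciferase cultures and 1917.2, 1913.3 and 2123.6 in blank cultures, a log2 difference of -0.17 (adjusted p = 0.15 from limma). All luciferase arrays were under all blank arrays. *Pfkm*, the muscle-type subunit, had 2782.8, 2940.8, 2756.7 and 2816.2 against 2601.7, 2590.8 and 2573.1, a change of 0.13 (adjusted p = 0.19), with every luciferase array above every blank array. *Pfkp*, the platelet-type subunit, had 3187.3, 3397.8, 3061.9 and 3140.0 against 3211.2, 3016.6 and 3114.8, with overlap and a change of 0.04, which turned to -0.06 with arrays centred on their medians. *Tpi1*, the triose phosphate isomerase, had a change of -0.01.

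The bifunctional enzymes *Pfkfb2* and *Pfkfb3* make and break the sugar phosphate that activates phosphofructokinase. Their log2 changes were 0.04 and 0.00. *Pfkfb3* had levels of 479.8, 631.0, 524.4 and 504.9 in luciferase cultures and 469.0, 410.2 and 777.4 in blank cultures, so the blank arrays spanned the luciferase arrays, and its 95% interval, -0.44 to 0.44, was the widest of the 36.

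In lower glycolysis 0 of 4 genes passed, with changes from -0.13 to 0.13. *Pgk1*, which makes the first ATP of the pathway, had levels of 11063.4 to 11607.0 against 12023.3 to 12234.9, a log2 difference of -0.10 (adjusted p = 0.26 from limma). *Pkm*, the pyruvate kinase, had 4650.6 to 4790.4 against 5119.0 to 5228.2, a change of -0.13 (adjusted p = 0.18). In both genes the groups did not overlap while the differences stayed small. *Pgam1*, a phosphoglycerate mutase, had -0.01 and *Eno2*, the enolase of neurons, 0.13.

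Lactate dehydrogenase is a tetramer of the subunits that *Ldha* and *Ldhb* encode. *Ldha* had levels of 8869.9, 8806.6, 8513.0 and 8578.0 in luciferase cultures and 9834.9, 9664.7 and 9204.6 in blank cultures, a log2 difference of -0.14 (adjusted p = 0.16 from limma). All luciferase arrays lay below all blank arrays. *Ldhb* had 4139.4, 4458.1, 4131.7 and 4438.7 against 4246.8, 3984.3 and 3743.0, a change of 0.11 (adjusted p = 0.33), and the groups overlapped through blank replicate 5. Of the lactate transporters, *Slc16a1* (MCT1) had a change of 0.11. *Slc16a3* (MCT4, the transporter of astrocytes) had levels of 190.6, 245.7, 227.3 and 245.4 against 171.2, 155.5 and 223.2, a change of 0.32 (adjusted p = 0.11), and it overlapped through luciferase replicate 1 and blank replicate 7.

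None of the 4 genes around pyruvate dehydrogenase passed. The subunits *Pdha1* and *Pdhb* had log2 changes of -0.06 and -0.07, and the kinases *Pdk1* and *Pdk3*, which switch the complex off, -0.17 and 0.01. The probe sets of *Pdk1* gave different values. The probe set with the highest level stands for a gene here, and in *Pdk1* it had 1577.5, 1485.8, 1457.9 and 1422.8 in luciferase cultures and 1500.1, 1553.1 and 1990.1 in blank cultures. Another of its tested probe sets had 522.7, 455.6, 493.9 and 429.5 in luciferase cultures and 644.1, 675.7 and 703.5 in blank cultures. That probe set fell by 0.51 on the log2 scale (adjusted p = 0.0043 from limma), and the last had -0.20 (adjusted p = 0.087).

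The step listed here as citric acid cycle held 2 of the 3 genes that passed, and they moved in opposite directions. *Idh1* encodes the isocitrate dehydrogenase of the cytosol and peroxisomes, and *Idh2* that of mitochondria, and both make NADPH. The *Idh1* enzyme thus lies outside the mitochondrial cycle. *Idh1* had levels of 4093.7, 3947.6, 3998.2 and 4156.3 in luciferase cultures and 4717.6, 5058.1 and 4871.1 in blank cultures. The means were 4048.9 ± 93.8 (SD, n = 4) and 4882.3 ± 170.5 (SD, n = 3), a log2 difference of -0.27 (standard error, SE, 0.067, adjusted p = 0.02 from limma), and all 4 luciferase arrays were under the lowest blank array. Its other tested probe set had a change of -0.26 (adjusted p = 0.075). *Idh1* did not pass without blank replicate 6 (adjusted p = 0.069) or without luciferase replicate 2 (adjusted p = 0.053).

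*Idh2* had levels of 654.1, 674.5, 591.9 and 611.8 in luciferase cultures and 494.0, 470.3 and 538.7 in blank cultures. All luciferase arrays lay above all blank arrays. The means were 633.1 ± 37.9 (SD, n = 4) and 501 ± 34.7 (SD, n = 3), a log2 difference of 0.34 (SE 0.081, adjusted p = 0.017 from limma). *Idh2* did not pass without blank replicate 5 (adjusted p = 0.057) or 6 (adjusted p = 0.064).

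The other 7 genes of the step listed as citric acid cycle did not pass, and the changes of 5 of them stayed close to 0. These were *Ogdh* (0.00) and *Sucla2* (0.01), which act between oxoglutarate and succinate, the fumarase *Fh1* (-0.02), and the malate dehydrogenases of cytosol and mitochondria, *Mdh1* (-0.05) and *Mdh2* (-0.02). *Idh3a*, a subunit of the NAD-dependent isocitrate dehydrogenase of the cycle, had 0.09 (adjusted p = 0.4 from limma). *Cs*, citrate synthase, had 5440.2, 5433.4, 5571.8 and 5954.2 in luciferase cultures and 5380.6, 4951.6 and 4828.7 in blank cultures, a change of 0.15 (adjusted p = 0.17) with no overlap. A further probe set of *Cs* rose by 0.26, from 1418.5 to 1477.9 in blank cultures to 1601.3 to 1843.1 in luciferase cultures (adjusted p = 0.033). Counting every probe set, 6 of the 64 of these genes (9.38%) passed, 4 higher and 2 lower, against 24.5% of all 22748 probe sets.

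Glycogen held the largest change of the 36 genes. *Gys1*, the glycogen synthase outside the liver, had levels of 852.7, 937.4, 850.7 and 787.7 in luciferase cultures and 574.6, 570.8 and 809.1 in blank cultures. Blank replicate 7 lay above luciferase replicate 4, so the groups overlapped. The means were 857.1 ± 61.5 (SD, n = 4) and 651.5 ± 136.5 (SD, n = 3), a log2 difference of 0.41 (SE 0.13, adjusted p = 0.041 from limma). A second probe set rose by 0.50 (adjusted p = 0.025). The call of *Gys1* was lost when any array other than blank replicate 7 was left out, with adjusted p from 0.053 to 0.14, and without blank replicate 7 its change was 0.58 (adjusted p = 0.0032). The other 4 glycogen genes did not pass. *Gbe1* had 0.06, *Pygb*, the glycogen phosphorylase of brain, 0.14, and *Pgm1*, which joins glycogen to glycolysis, 0.01. *Ugp2*, which makes the sugar nucleotide that glycogen synthase uses, had 1469.3 to 1517.1 against 1625.9 to 1674.0, a change of -0.14 (adjusted p = 0.13) with no overlap.

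**Figure D3:**
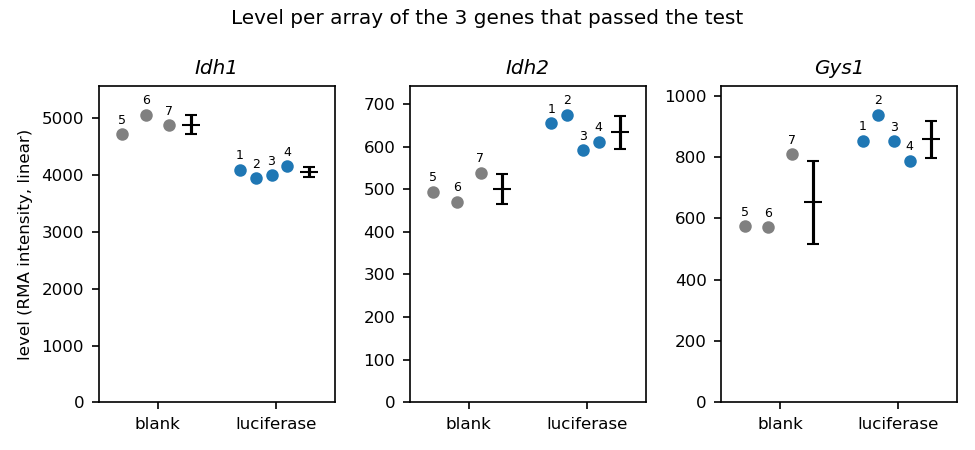
Level (RMA intensity, linear axis from 0) on each array of *Idh1*, *Idh2* and *Gys1*, with replicate numbers beside the points and mean ± SD as bars, for blank (grey, n = 3) and luciferase cultures (blue, n = 4). *Idh1* lies lower and *Idh2* higher on every luciferase array, while blank replicate 7 of *Gys1*, at 809.1, lies among the luciferase arrays.

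Several steps are served by alternative isoforms, and whether the isoforms of a step differed in their change was tested on the difference of their log2 levels within each array. Of 12 pairs, 10 could be tested; *Eno1* with *Eno2* and *Pygm* with *Pygb* could not. Two-sided exact permutation tests used all 35 ways to divide the arrays into groups of 4 and 3, which allow no p under 0.029, and after adjustment over the 10 pairs none passed. With this floor a single pair could not pass the adjustment on its own, however large its difference. The difference between *Idh1* and *Idh2* was 2.65, 2.55, 2.76 and 2.76 in luciferase cultures and 3.26, 3.43 and 3.18 in blank cultures, a difference between the group means of -0.61 (exact permutation p = 0.029, adjusted 0.071). Leaving out any 1 array gave -0.66 to -0.54, and the mean over all probe sets of each gene gave -0.60 (exact permutation p = 0.029). In the probe sets that stand for these genes, every luciferase array was lower in *Idh1* and higher in *Idh2*. Their difference therefore could not overlap between the groups, and its test adds nothing to that separation.

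The liver-type subunit of phosphofructokinase and the A subunit of lactate dehydrogenase were each lower relative to the partner of the pair on every luciferase array. *Pfkl* minus *Pfkm* was -0.66, -0.64, -0.64 and -0.77 in luciferase cultures and -0.44, -0.44 and -0.28 in blank cultures, a difference of -0.29 (exact permutation p = 0.029, adjusted 0.071). As every luciferase array was lower in *Pfkl* and higher in *Pfkm*, this difference could not overlap either. Its test adds nothing to that separation. *Ldha* minus *Ldhb* was 1.10, 0.98, 1.04 and 0.95 against 1.21, 1.28 and 1.30, a difference of -0.24 (exact permutation p = 0.029, adjusted 0.071). In both pairs the mean over all probe sets gave -0.31 and -0.29 (exact permutation p = 0.029 for each). *Pfkp* minus *Pfkm* differed by -0.09 (exact permutation p = 0.029, adjusted 0.071), but the mean over all probe sets gave -0.04 (exact permutation p = 0.600).

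The remaining 6 pairs did not reach 0.05 before adjustment. *Slc2a1* minus *Slc2a3* differed by -0.34 and *Hk2* minus *Hk1* by 0.15 (exact permutation p = 0.057, adjusted 0.095 for each). With the mean over all probe sets the latter was 0.10 (exact permutation p = 0.029). *Slc16a3* minus *Slc16a1* differed by 0.21 and *Pdk1* minus *Pdk3* by -0.17 (exact permutation p = 0.171 for each). *Mdh1* minus *Mdh2* differed by -0.03 and *Pfkfb3* minus *Pfkfb2* by -0.04, with exact permutation p of 0.686 or more, and with the mean over all probe sets these were -0.22 (exact permutation p = 0.143) and 0.10 (exact permutation p = 0.686).

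**Figure D4:**
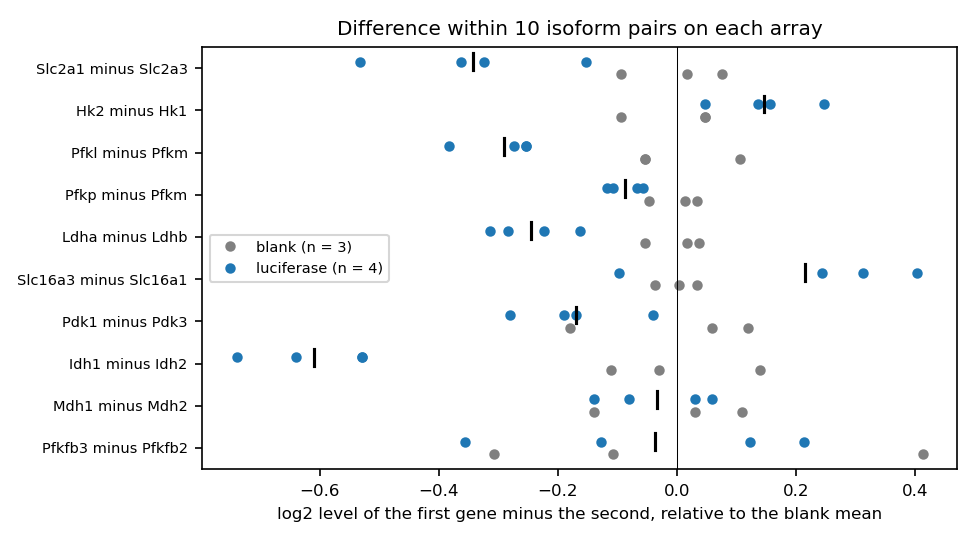
Log2 level of the first gene minus the second in 10 isoform pairs on each array, set relative to the blank mean of the pair, for blank (grey, n = 3) and luciferase cultures (blue, n = 4); the bar marks the luciferase mean. The pair *Idh1* and *Idh2* shows the largest difference, -0.61, with no overlap between the groups.

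Other genes of the same pathways were counted in the same fit. Of 15 measured further glycolysis genes 1 was higher and 2 lower, with a median log2 change of -0.16. *Pfkfb4*, a relative of *Pfkfb3*, rose by 0.45 (adjusted p = 0.0053 from limma), while *Adpgk*, an ADP-dependent glucokinase, fell by 0.43 (adjusted p = 0.045) and *Pklr*, the pyruvate kinase of liver and red cells, fell by 0.31 (adjusted p = 0.03). The other probe sets of *Pklr* had 0.12 (adjusted p = 0.52) and -0.19 (adjusted p = 0.15), and their mean did not pass. Centring gave 5 of the 15 lower and quantile normalization 4, and without blank replicate 5 or luciferase replicate 2 or 4, or with no filter on level, 0 were lower. The share of all genes lower moved as well, from 8.55% to 15.8% with centring and 11.9% with quantile normalization. It was 5.45% to 5.99% in the settings that gave 0. Leaving out single arrays, *Adpgk* did not pass in 6 of the 7 cases (it passed without blank replicate 6) and *Pklr* in 5 (it passed without blank replicate 7 or luciferase replicate 1). Of 21 further genes of pyruvate dehydrogenase and the citric acid cycle 4 were higher and 0 lower (median 0.10). Among them *Pdk4*, a pyruvate dehydrogenase kinase, had levels of 90.4, 72.0, 72.1 and 60.0 against 40.7, 45.0 and 54.8 and rose by 0.65 (adjusted p = 0.012). *Me2*, the mitochondrial malic enzyme, rose by 0.47 (adjusted p = 0.0043) and *Pdk2* by 0.32 (adjusted p = 0.031). *Pfkfb4* and *Me2* passed in all 16 alternatives and *Pdk4* in the 14 that kept its probe set, as it falls under both stricter filters on level, while *Pdk2* did not pass without blank replicate 5 or 6 or luciferase replicate 2, 3 or 4. The count of 4 became 9 with array weights and 7 without blank replicate 7. It became 2 without blank replicate 5 or 6 or luciferase replicate 2 or 4, with centring or with no filter on level. Over all genes, 29.6% were higher with array weights, 23.1% without blank replicate 7 and 8.49% to 12.1% in the settings that gave 2.

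Glycogen breakdown and its control also involve genes outside the list. Of 17 further glycogen genes 6 (35.3%) were higher and 0 lower, with a median log2 change of 0.13, where 16.9% of all genes were higher. *Pygl*, the glycogen phosphorylase of liver, had levels of 155.7, 114.4, 124.6 and 149.9 in luciferase cultures and 64.7, 72.7 and 64.8 in blank cultures. It was 2.01-fold higher (SE of the log2 value 0.12, adjusted p = 8.1e-04 from limma), with no overlap between the groups. *Phka1*, a regulatory subunit of phosphorylase kinase, had 178.0, 169.0, 185.8 and 180.4 against 116.2, 103.2 and 136.1 and rose by 0.60 (adjusted p = 0.0037). *Nhlrc1* (malin), a ubiquitin ligase that limits glycogen build-up, had 308.1, 314.1, 317.7 and 326.5 against 208.8, 202.7 and 246.2 and rose by 0.54 (adjusted p = 0.0031). These 3 genes passed in all 16 alternatives, while the other 3 did not. With arrays centred on their medians 3 of the 17 were higher and 2 lower, and leaving out single arrays gave 3 to 6 higher, with 3 without luciferase replicate 3 or 4. Over all genes, centring gave 9.42% higher and 15.8% lower, and single arrays left out gave 9.02% to 23.1% higher. The summed level of astrocyte markers was also higher in luciferase cultures, as given above, and its part in these counts was not tested.

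**Figure D5:**
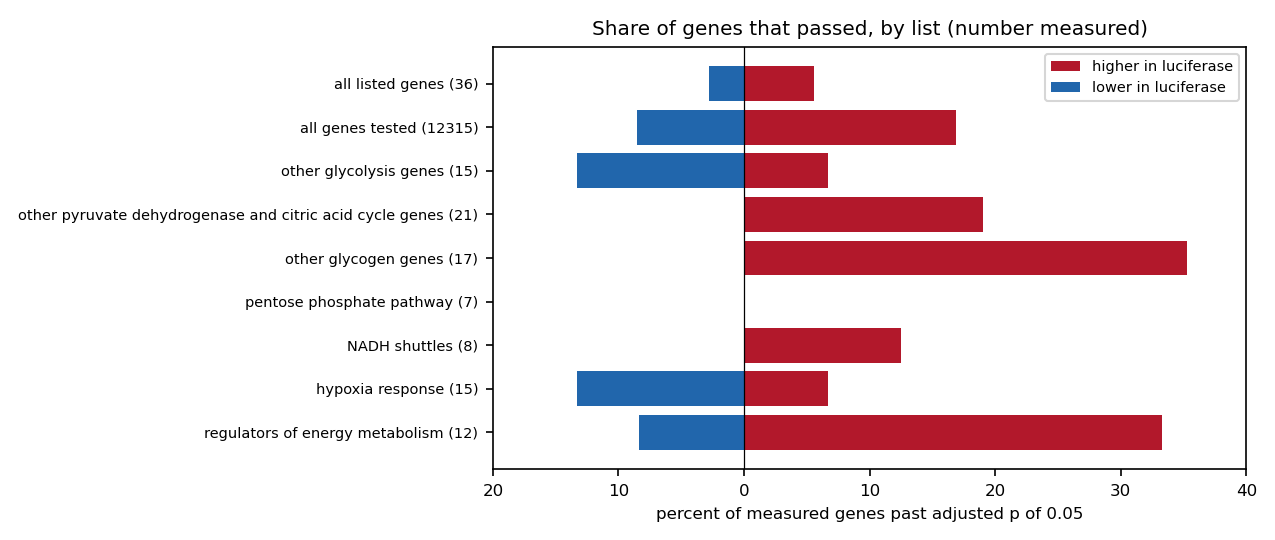
Percent of measured genes that passed at an adjusted p of at most 0.05 from limma, higher (red, right of 0) and lower (blue, left of 0) in luciferase cultures, for the 36 genes of the route, all 12315 genes and 7 further lists, with the number measured in brackets. The route shows 5.56% higher and 2.78% lower, and the further glycogen genes show the largest share higher, 35.3%.

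Routes that branch from glycolysis and its known regulators gave mixed counts. None of the 7 measured genes of the pentose phosphate pathway, which makes NADPH from glucose, passed, and their median log2 change was 0.03. Of 8 genes that shuttle reducing equivalents and citrate between cytosol and mitochondria, 1 was higher, the citrate carrier *Slc25a1* (0.28, adjusted p = 0.028 from limma), which did not pass without blank replicate 5 or 6 or luciferase replicate 2, 3 or 4. Of 15 genes of the hypoxia response 1 was higher and 2 lower (median -0.03), *Ankrd37* having risen by 0.65 (adjusted p = 0.0011) while *Adm*, a vasodilator peptide, fell by 0.61 (adjusted p = 0.012) and *Egln3*, an oxygen-sensing prolyl hydroxylase, fell by 0.35 (adjusted p = 0.0073). Without blank replicate 7, 3 of these 15 were higher and 2 lower, while centring and quantile normalization each gave 1 higher and 5 lower. Over all genes, 23.1% were higher and 9.32% lower without blank replicate 7, and 9.42% and 15.8% with centring. Quantile normalization gave 12% and 11.9%. Of 12 regulators of energy metabolism 4 were higher and 1 lower (median 0.08). This became 1 higher and 1 lower without blank replicate 6, 2 higher and 0 lower without blank replicate 5 or luciferase replicate 1 or 2, and 2 higher and 2 lower with centring. Over all genes, leaving out any of these 4 arrays gave 9.02% to 11.6% higher and 5.45% to 6.11% lower. *Ppargc1a*, the coactivator that drives mitochondrial genes, rose by 0.58 (adjusted p = 0.011), *Txnip*, which restrains glucose uptake, by 0.46 (adjusted p = 0.021), and *Prkaa1*, a catalytic subunit of the AMP-activated kinase, by 0.42 (adjusted p = 0.035), the last of these being lost when any array other than blank replicate 7 was left out and *Txnip* without blank replicate 6 or luciferase replicate 1. *Prkaa1* had low levels, 71.1 to 77.1 in luciferase cultures against 44.4 to 65.8 in blank cultures, and falls under both stricter filters on level. *Ankrd37*, *Adm*, *Egln3* and *Ppargc1a* passed in all 16 alternatives. The other probe sets of *Ppargc1a* had smaller changes, 0.42 (adjusted p = 0.015 from limma), 0.25 (adjusted p = 0.095) and 0.23 (adjusted p = 0.077).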

How the data were processed

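RNA was measured on Affymetrix Mouse 430_2 arrays, 1 per culture, in 4 luciferase and 3 blank cultures. Per the labels and methods, the authors normalized the scans with RMA, of a version not given in the sources used here, then deposited intensity values on a linear scale (4.69 to 23763.4). RMA sets arrays to a common distribution, which can hide a shift shared by all genes. The table held 0 columns of other samples. Blank columns start 1 row lower than the luciferase columns: the group means of log2 values correlated at r = 0.9953 over 45037 probe sets once moved by 1 row, and at 0.3759 to 0.4211 for other moves from -3 to 3, so they were moved up 1 row. Control probe sets (64) and those with _x in the name (2441) were left out of 45101, and 22748 reached 50 on at least 1 array. Gene names came from the array annotation, and 20536 tested probe sets name 1 gene.

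The groups were compared on log2 values by limma 3.58.1 (R 4.3.3; lmFit and eBayes without covariates). P-values were adjusted after Benjamini and Hochberg across the 22748 probe sets. The probe set with the highest mean stands for a gene. Members and lists were chosen with earlier results of these data known. Per-array values were given for genes past the threshold and for both genes of an isoform pair with p under 0.05, and up to 3 genes past the threshold were named per further list; values of *Slc2a1*, *Pfkfb3*, *Slc16a3*, *Pdk1*, *Cs*, *Pgk1*, *Pkm*, *Ugp2* and the further probe sets were added after they were seen. On data simulated with these levels and spreads (22748 probe sets, 10 draws), 40.2% of log2 changes of 0.4, 83.8% of 0.58 and 99.2% of 1 were found, and 5.36% of those found were false. Far fewer probe sets were changed in each draw than passed in the real fit, which makes the adjustment stricter there. These rates therefore need not hold for the real comparison. Alternatives were other filters on level, _x probe sets kept, quantile normalization, centring, array weights, trend and robust variance, means over probe sets, and each array left out. The alternatives for isoform pairs and further lists were chosen after seeing the data.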

Additional observations from a re-analysis of the deposited data

Results flagged for a closer look

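In *Gbe1*, the glycogen branching enzyme, luciferase replicate 1, at 128.8, lay away from its group at 119.1 to 120.4. Its gap to the nearest array was 0.866 of the range of the group, above Dixon's critical value for 4 arrays. This was 1 such case among 36 genes tested, and chance gives about 1 in 20. The blank arrays of *Gbe1* ranged more widely, with an SD of 11.2 (n = 3) against 4.48 (n = 4).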

How the results depend on the processing

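No paired analysis was possible because the groups share no replicate number. No gene of the route passed at 1.5-fold under any alternative. The number of genes higher, 2, became 6 with array weights, 1 with arrays centred on their medians and 1 without a filter on level, and the number lower, 1, became 3, 6 and 0 under the same settings, 3 with means over probe sets, 2 with _x probe sets kept and 4 with trend and robust variance. Leaving out single arrays gave 0 to 5 higher and 0 to 1 lower. Without blank replicate 5, 0 were higher. Without blank replicate 6, 0 were higher and 0 lower, and without luciferase replicate 2, 0 were lower and 1 higher. Over all genes, 29.6% were higher and 14% lower with array weights, and 8.49% and 5.83% without a filter on level. Means over probe sets gave 20.2% and 10.3%, _x probe sets kept 16.6% and 8.8%, and trend and robust variance 18.8% and 8.76%. Single arrays left out gave 9.02% to 23.1% of all genes higher and 5.45% to 9.32% lower. Centring moved the median log2 change of the 36 genes to -0.09 and that of all genes from 0.06 to -0.04, and 9.42% of all genes were then higher and 15.8% lower; single arrays left out gave medians of -0.01 to 0.03. The 6 genes lower after centring were *Idh1*, *Ldha*, *Pfkl*, *Pkm*, *Slc2a1* and *Ugp2*. *Pfkp* turned to -0.06 after centring, the only change of sign among the 8 genes followed singly. Over 16 alternatives *Idh1* passed in 13 (not without a filter, nor without blank replicate 6 or luciferase replicate 2), *Idh2* in 14 and *Gys1* in 8. Why the counts move with array weights and variance model was not tested.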
